A study of Mus musculus with 6 samples.

Results

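Complement components and regulators form a group of 9 genes, C1qa, C1qb, C1qc, C3, C4b, C3ar1, C5ar1, Cd55 and Serping1, out of 22086 genes with counts assigned in hippocampal astrocyte libraries. The 9 genes were listed by name with earlier results of these libraries known. Each was read from its transcript with the highest total over the 6 libraries, a choice that did not use the genotype. The values below therefore describe the group and are no independent evidence of its direction.

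Polysomal mRNAs were isolated from whole hippocampi of 6 weeks-old mice by TRAP, in which tagged ribosomes are immunoprecipitated with the mRNAs they carry. The control group, Cx43FL, held 3 libraries from littermates with the strain tg:Aldh1L1-RPL10aGFP and floxed Cx43 alleles (Cx43 fl/fl). The Cx43KO group held 3 libraries with the same transgene and floxed alleles plus Gfap Cre. The tag in both groups is the ribosomal protein L10a fused to eGFP and driven by the astrocyte promoter Aldh1l1, and the deletion is driven by a human GFAP promoter, so any cell in which that promoter has been active can be recombined. How many mice went into each library, and whether the 3 libraries of a group came from separate mice, is not given in the labels, so p-values measure the spread between libraries, which may be technical.

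Complement is a cascade of mostly secreted proteins. C1q, built from the chains encoded by C1qa, C1qb and C1qc, recognises surfaces and starts the classical pathway, C4 and C3 are cleaved and deposited in turn, and the small fragments released from C3 and C5 signal through receptors on myeloid cells. Cell-bound and soluble inhibitors limit the cascade, and in the brain microglia are the main known source of C1q, while complement deposition is known for its part in the removal of synapses.

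Total counts ranged from 33423491 to 77030398 per library on transcripts, and the Cx43KO libraries were deeper. Levels are in CPM, for which each library's counts are divided by its TMM-scaled total over the tested genes, in M. Before that scaling, 3 counts are worth 0.0864 to 0.203 CPM. Cx43KO replicate 1 stood apart on the first principal component, which held 41.0% of the variance, with a score of 123.4 where the other 5 libraries lay between -50.7 and -0.42. The deleted gene, Gja1, which encodes Cx43, had 1396, 1382 and 1264 counts in the Cx43FL libraries, given here and below in order of replicate number, and 1405, 2449 and 3079 counts in the Cx43KO libraries. The genotypes overlapped on CPM, with a log2 fold change of 0.08 (SE 0.28, adjusted p = 0.949, Benjamini-Hochberg adjustment of edgeR's quasi-likelihood test). Gja1 counts thus did not show the deletion, and how reads fall on the deleted part was not examined here. Cx43FL and Cx43KO therefore name libraries labelled so, and every direction below rests on those labels. The labels give no preparation or sequencing batch. The paper states that libraries were pooled in sets of 3 for sequencing, without saying which libraries shared a flow cell lane. Whether a library batch coincided with the genotype is therefore unknown, and a batch effect could not be told apart from the genotype here.

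RefSeq promoter windows of GRCm38.p6, here the 250 bases before the RefSeq start, were found for 6 of the 9 genes. These were C1qb, C1qc, C3, C3ar1, C5ar1 and Cd55. Distances to the start are counted from the RefSeq start, which can differ from the gene ends given below. The windows of C1qc and C5ar1 lie largely inside those gene spans, and that of C3ar1 reaches a few bases into its own. Those of C1qb and C1qc are shown because these neighbouring genes lay in different proportions in different libraries, and that of Cd55 because it had the largest normalized count of the group in Cx43KO. All are on the minus strand and are written 5′ to 3′, and capitals mark the letters GAGGAA, the core read by the myeloid factor PU.1, on either strand.
C1qb, chr4:136886201-136886450: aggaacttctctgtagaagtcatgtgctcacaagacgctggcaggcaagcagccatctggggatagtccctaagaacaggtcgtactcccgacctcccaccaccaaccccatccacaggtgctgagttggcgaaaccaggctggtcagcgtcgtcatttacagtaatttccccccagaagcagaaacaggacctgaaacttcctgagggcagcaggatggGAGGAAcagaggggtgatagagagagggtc
C1qc, chr4:136892915-136893164: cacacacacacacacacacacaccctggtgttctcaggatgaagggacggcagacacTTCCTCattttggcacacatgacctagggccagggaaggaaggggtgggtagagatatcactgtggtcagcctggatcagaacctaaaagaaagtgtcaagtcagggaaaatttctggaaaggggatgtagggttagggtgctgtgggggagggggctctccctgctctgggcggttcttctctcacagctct
Cd55, chr1:130462745-130462994: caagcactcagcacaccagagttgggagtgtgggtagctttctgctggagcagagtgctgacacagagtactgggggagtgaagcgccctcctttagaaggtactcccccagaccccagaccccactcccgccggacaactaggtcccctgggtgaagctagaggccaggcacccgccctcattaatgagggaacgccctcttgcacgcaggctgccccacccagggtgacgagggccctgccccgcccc
The C1qb window held GAGGAA on the strand of the gene, starting 30 bases before the start, and the C1qc window held its reverse complement 193 bases before the start. GAGGAA was in 23.3% of all 32851 windows of that length. The interferon-type letters GAAANNGAA were found among the 6 windows in C5ar1 alone, on the opposite strand 66 bases before the start, and were in 7.13% of all windows. TTCNNNGAA, the letters of a STAT-type site, were in none of the 6 windows and in 7.02% of all windows. These matches describe letters only, and the motifs do not overlap one another in the windows printed.

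Of the C1q genes, which initiate the classical pathway, C1qb and C1qc were above every library labelled Cx43FL in every library labelled Cx43KO, and C1qa was above in 2 of 3. The 3 genes lie side by side on chromosome 4 of GRCm38, C1qb from 136880129 to 136886187, C1qc from 136889804 to 136893065 and C1qa from 136895917 to 136898803, each with 3 exons on the minus strand. For C1qb, the Cx43FL libraries held 42, 27 and 18 counts, against 128, 97 and 1337 in Cx43KO. C1qc had 14, 14 and 1 counts in Cx43FL and 19, 288 and 730 in Cx43KO. C1qa had 0, 0 and 4 counts in Cx43FL and 1, 88 and 83 in Cx43KO. Thus Cx43KO replicate 3 carried most of the C1qb and C1qc signal, while C1qa was nearly absent from Cx43KO replicate 1 and its genotypes overlapped.

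On the CPM scale C1qb was at 1.91 ± 0.80 in Cx43FL and 17.7 ± 20.5 in Cx43KO (SD, n = 3 each), a log2 fold change of 3.21 (SE 0.96). C1qc was at 0.639 ± 0.497 and 11.8 ± 10.7 CPM, a log2 fold change of 4.19 (SE 1.27). Neither passed the test, with adjusted p of 0.492 and 0.497 (edgeR's quasi-likelihood test, Benjamini-Hochberg over 13545 genes), and each Cx43KO SD was close to or above its mean. Replicate 3 held 77.7% of the summed Cx43KO CPM of C1qb and 63.9% of that of C1qc. Without it the log2 fold change of C1qb was 1.61. C1qa was kept out of the test by the filter on low counts. Fitted without that filter, its log2 fold change was 4.47 (SE 2.13, adjusted p = 0.543 with edgeR's quasi-likelihood test), and its pooled Cx43KO to Cx43FL ratio was 26.7 (95% interval 10.3 to 99.2, counting error only).

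The chains of C1q, which assemble in equal numbers in the protein, did not share counts in a fixed ratio. Per kb of transcript, C1qb made up 76.8%, 68.1% and 78.0% of the C1q sum in the Cx43FL libraries, against 87.5%, 21.6% and 64.2% in the Cx43KO libraries. C1qc was the largest chain in Cx43KO replicate 2, with 57.9% of the sum, where C1qa held 20.5%. In Cx43KO replicate 1 C1qa held 0.715%. The C1q sum itself rested on 56, 41 and 23 counts in Cx43FL and 148, 473 and 2150 in Cx43KO, so the Cx43FL shares are the least precise.

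**Figure D1:**
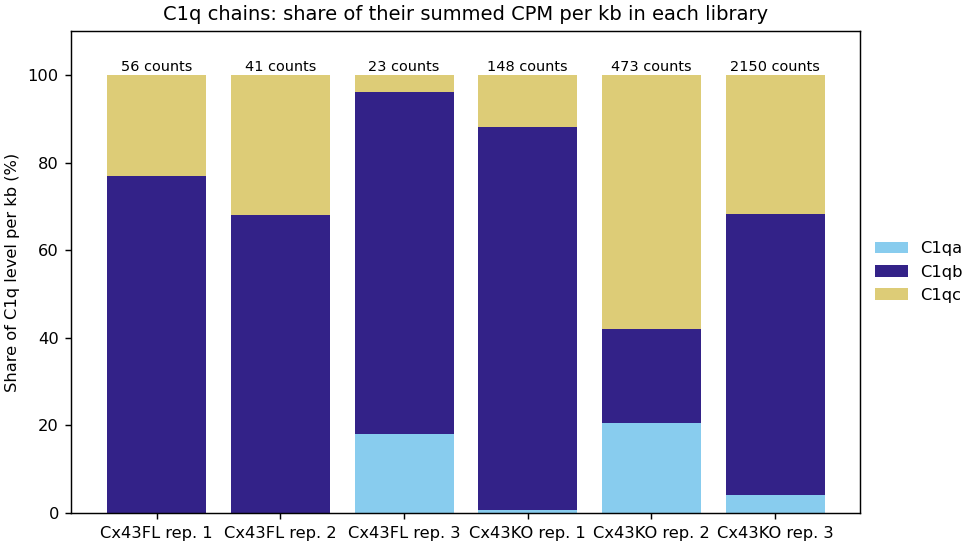
Share of the C1q sum, in percent of summed CPM per kb, taken by C1qa, C1qb and C1qc in each of the 6 libraries. C1qb was the largest part in 5 libraries and C1qc in Cx43KO replicate 2.

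The central components differed from each other in level. C4b, cleaved by C1s in the classical pathway, lies on chromosome 17 from 34728380 to 34743882 and has 41 exons. It was measured in every library, with 84, 276 and 266 counts in Cx43FL and 341, 621 and 600 in Cx43KO. In CPM, C4b stood at 5.53, 18.3 and 17.3 in Cx43FL against 21.2, 25.0 and 18.5 in Cx43KO, so the genotypes did not overlap but Cx43FL replicates 2 and 3 lay close to Cx43KO replicate 3. The log2 fold change was 0.65 (SE 0.57, adjusted p = 0.741, edgeR's quasi-likelihood test), and it was 0.26 without Cx43FL replicate 1. Adding up the 3 transcripts of C4b made the genotypes overlap. C4b has the near-identical copy C4a, and reads mapping more than once had been removed, so its level is uncertain.

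C3, on which all pathways converge, lies on chromosome 17 from 57203970 to 57228136 and also has 41 exons. It had 0, 8 and 5 counts in Cx43FL and 3, 270 and 157 in Cx43KO. Cx43KO replicate 1 fell within the Cx43FL range and the other 2 Cx43KO libraries were above it, at 10.9 and 4.85 CPM. C3 was not kept by the filter on low counts, and its log2 fold change fitted without the filter was 4.19 (SE 1.67, adjusted p = 0.508 with edgeR's quasi-likelihood test).

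By group means, the receptors were the least abundant members per length. C3ar1, the receptor of the C3a fragment, lies on chromosome 6 from 122847138 to 122856161, with 2 exons. It was at 1, 0 and 1 counts in Cx43FL and at 95, 40 and 86 counts in Cx43KO. Every Cx43KO library thus stood above a Cx43FL group holding 2 counts in all, and C3ar1 passed the filter through its Cx43KO libraries alone. The pooled ratio was 68.7 (95% interval 18.8 to 571, counting error only). The fitted log2 fold change was 6.08 (SE 1.55, adjusted p = 0.490, edgeR's quasi-likelihood test). C5ar1, the receptor of C5a, lies on chromosome 7 from 16246743 to 16259540 and had 3, 1 and 1 counts in Cx43FL and 0, 20 and 19 in Cx43KO. It was thus at 0 in the Cx43KO library with the most C3ar1, and it was not kept by the filter.

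Among the regulators, Cd55 and Serping1 had every Cx43KO library above every Cx43FL library. Cd55 encodes decay-accelerating factor, a membrane protein that dissociates the C3 convertases. It lies on chromosome 1 from 130439027 to 130462744, with 10 exons, and had 16, 0 and 13 counts in Cx43FL and 776, 262 and 408 in Cx43KO. Replicate 1 was the highest Cx43KO library and held 67.6% of the summed Cx43KO CPM, the reverse of the C1q genes, for which it was the lowest library or next to it. Cd55 was at 0.634 ± 0.558 CPM in Cx43FL and 23.8 ± 21.2 CPM in Cx43KO (SD, n = 3 each), with a log2 fold change of 5.21 (SE 1.17). Its adjusted p was 0.490 with edgeR's quasi-likelihood test and 1.27e-04 with DESeq2 and its normal prior. Without Cx43KO replicate 1 the log2 fold change was 4.18 (adjusted p = 0.442, edgeR's quasi-likelihood test).

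Serping1 encodes the C1 inhibitor, a secreted serpin that blocks the proteases C1r and C1s. It lies on chromosome 2 from 84765387 to 84775444, with 8 exons. Its Cx43FL libraries held 49, 57 and 71 counts, against 103, 398 and 883 in Cx43KO. The Cx43FL libraries were close together, at 3.88 ± 0.70 CPM, and the Cx43KO libraries were spread, at 16.6 ± 10.4 CPM (SD, n = 3 each). The log2 fold change was 2.09 (SE 0.71, adjusted p = 0.540, edgeR's quasi-likelihood test).

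**Figure D2:**
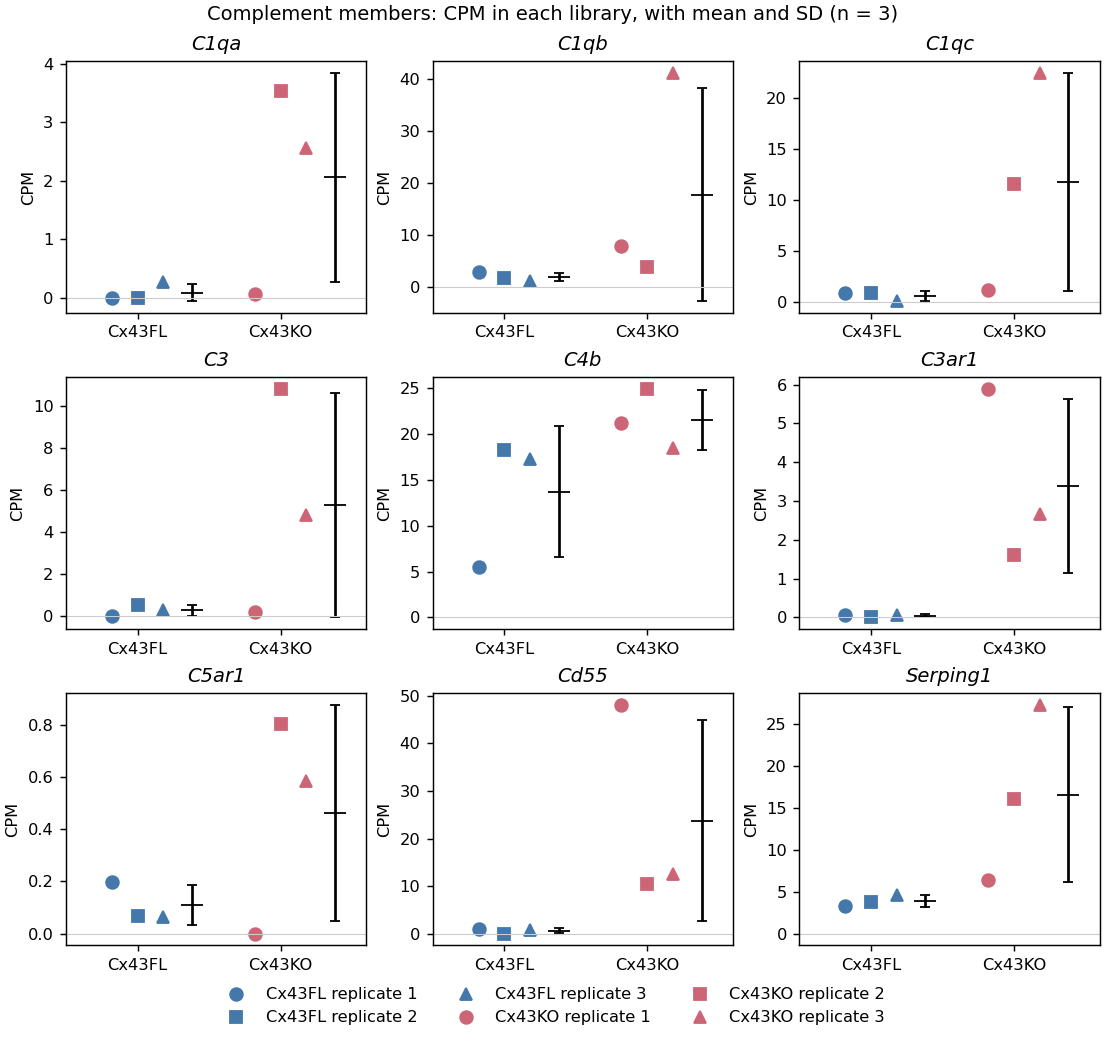
CPM of the 9 genes in each library, 1 panel a gene, with Cx43FL and Cx43KO points, and black bars for the mean ± SD of 3 libraries. The genotypes overlap for C1qa, C3 and C5ar1 and do not for the other 6, and the highest Cx43KO library differs from gene to gene.

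In the count of separated libraries, 6 of the 9 genes had every Cx43KO library above every Cx43FL library, against 8.08% of the 13545 tested genes, and none had every Cx43KO library below, against 7.45%. The 6 were also the ones that passed the filter on low counts, and the group was named with these libraries known, so nothing is read from that count. Without Cx43KO replicate 1, all 9 genes, of which 6 were tested, had both remaining Cx43KO libraries above Cx43FL, against 13.9% of tested genes. That replicate was the one within or below the Cx43FL range for C1qa, C3 and C5ar1, so nothing is read from this count either. None of the 6 tested members was called by edgeR at an adjusted p under 0.05, against 0.00738% of tested genes called higher, which is 1 gene, Prm1, a protamine named after its value was seen. At an unadjusted p under 0.05, 5 of the 6 lay higher, C4b being the exception, against 5.66% of tested genes. DESeq2 with its normal prior called C1qb and Cd55, against 0.758% of its 12931 genes called higher. Run on all counted genes instead, it called C1qb, C1qc, C3ar1 and Cd55, against 0.827% of 13669. C3ar1 passed the filter through its Cx43KO libraries alone, and C1qc and Cd55 were at 1 and 0 counts in 1 Cx43FL library each. As the group was also named with these libraries known, nothing is read from these counts of members called or lying higher.

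Per kb of transcript, the order of levels differed between the genotypes. In Cx43FL, C4b was the highest at 2.55 ± 1.32 CPM per kb, then Serping1 at 2.19 ± 0.40, C1qb at 1.76 ± 0.74, C1qc at 0.531 ± 0.413 and Cd55 at 0.250 ± 0.220 (SD, n = 3). C1qa, C3, C5ar1 and C3ar1 followed, from 0.0835 down to 0.0101. Among neighbours in this order, library ranges did not overlap between C1qb and C1qc or between C5ar1 and C3ar1, and overlapped for the rest. In Cx43KO, C1qb was the highest at 16.3 ± 18.9 CPM per kb, then C1qc at 9.78 ± 8.88, Cd55 at 9.38 ± 8.36, Serping1 at 9.36 ± 5.91 and C4b at 4.01 ± 0.60. C1qa, C3, C3ar1 and C5ar1 followed, from 1.98 down to 0.187. Here the ranges of C4b and C1qa, and those of C3ar1 and C5ar1, did not overlap, and those of the other neighbours did. The highest member in a single library was C1qb in Cx43FL replicate 1, C4b in Cx43FL replicates 2 and 3, Cd55 in Cx43KO replicate 1, C1qc in replicate 2 and C1qb in replicate 3.

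The number of members above 10 counts was 5, 4 and 4 in Cx43FL and 6, 9 and 9 in Cx43KO, the last 2 being also the deepest libraries. The highest Cx43KO library was replicate 1 for C3ar1 and Cd55, replicate 2 for C1qa, C3, C4b and C5ar1, and replicate 3 for C1qb, C1qc and Serping1. The library of highest level thus differed between members.

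Among the remaining complement genes, those tested were split in direction. Of 45 listed, 44 were matched and 17 were tested, of which 8 were higher and 9 lower in Cx43KO, with a median log2 fold change of -0.02 against 0.07 over all tested genes. The extremes were -3.71 for Cd46, a membrane cofactor for cleavage of C3b and C4b, and 5.96 for Itgam. Cd46 (SE 1.76) had 42, 228 and 0 counts in Cx43FL and 1, 9 and 29 in Cx43KO, so its genotypes overlapped. No gene of the 17 was called by edgeR's quasi-likelihood test. At an unadjusted p under 0.05 in that test, 1 lay higher, against 5.66% of all tested genes. DESeq2 with its prior called 1, against 0.758% of its 12931 genes called higher. In both cases the gene was Itgam. Every Cx43KO library was above Cx43FL for 2 of the 17, Itgam among them, and below for 0. Over all tested genes these shares were 8.08% and 7.45%, and nothing is read from these counts. Of the 20 untested genes with any count, 15 had a higher mean CPM in Cx43KO and 5 a lower one, and 12 were at 0 in all Cx43FL libraries, which were also the shallower ones.

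Itgam encodes CD11b, the alpha chain of complement receptor CR3 on myeloid cells. It had 9, 0 and 3 counts in Cx43FL and 610, 209 and 135 in Cx43KO. Its log2 fold change was 5.96 (SE 1.33, adjusted p = 0.490 with edgeR's quasi-likelihood test). Its partner chain Itgb2 had 0, 0 and 0 counts in Cx43FL and 45, 3 and 1 in Cx43KO, and was not tested.

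By role, the tested initiating genes were Masp1 and Masp2, the mannose-binding lectin proteases, with log2 fold changes of -0.38 and 0.71. C2, Cfb and Cfp, the other central genes, were at -0.86, 0.28 and -0.16, none of them called. C8g, the only tested gene of the terminal complex, was at -3.22 (SE 1.66). It had 9, 60 and 34 counts in Cx43FL and 11, 0 and 2 in Cx43KO, so its genotypes overlapped. Among regulators, 10 were tested, 5 higher and 5 lower. The 5 most abundant complement genes per length outside the group were all regulators, and their genotypes overlapped. Clu, the secreted chaperone clusterin that blocks the terminal complex, was at 814 ± 205 CPM per kb in Cx43FL and 927 ± 444 in Cx43KO (SD, n = 3 each), far above C4b, the highest member in Cx43FL. C1qbp, a mostly mitochondrial protein that binds C1q, was at 95.1 ± 9.96 and 93.7 ± 2.50. Cr1l, Susd4 and Cd59a, membrane regulators, were at 17.4, 7.21 and 7.04 CPM per kb in Cx43FL and 14.9, 12.3 and 15.9 in Cx43KO.

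**Figure D3:**
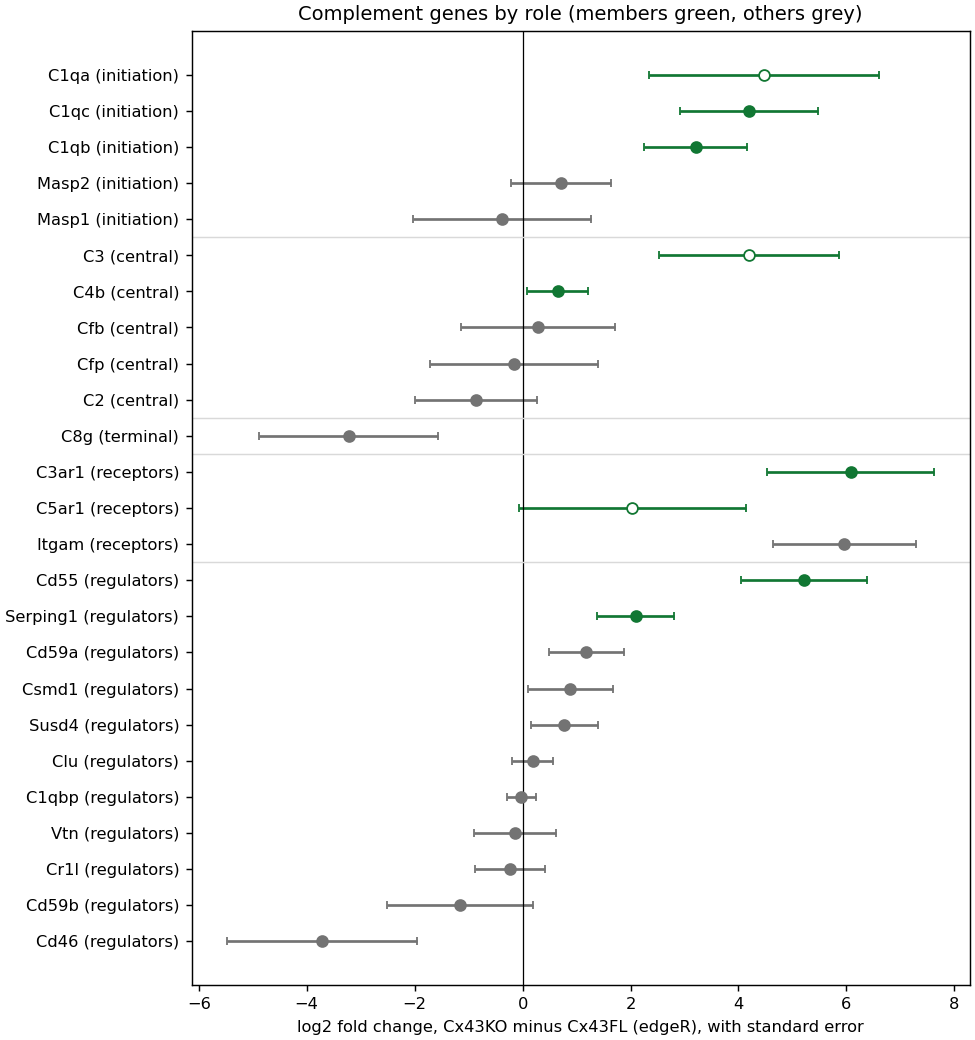
Log2 fold change of Cx43KO against Cx43FL, with its SE, for the 9 members and other tested complement genes, grouped by role. Filled circles are genes past the filter on low counts, and open circles are members that did not pass it, with values from the fit without the filter.

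The genes whose profile over the 6 libraries was closest to a member were found as the smallest root-mean-square difference of mean-centred log2(CPM + 0.5). For Cd55 they were Itgam at 0.49, Cd274 at 0.60 and Kcnb2 at 0.67 log2 units. For C1qb they were Ctss, a lysosomal protease, at 0.42, Colq at 0.42 and Slc16a10 at 0.48. For C4b they were Pold2 at 0.18, Fxyd2 at 0.21 and Slc32a1 at 0.21. Such likeness describes 6 libraries, which differ in depth, and says nothing of shared function.

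Markers of other cell types were measured beside the members, because C1q, C3ar1 and Itgam are typical of microglia and other myeloid cells. In bulk libraries, more cells of a type and more RNA per cell cannot be told apart. The 22 microglia markers summed to 138, 156 and 108 CPM in Cx43FL and 207, 220 and 314 CPM in Cx43KO, with the higher sums in the Cx43KO libraries. Of the 18 tested microglia markers, 15 were higher in Cx43KO and the median log2 fold change of the 18 was 1.50. The genotypes did not overlap for 5 of the 18, all with Cx43KO above. Over all tested genes, 54.4% had a log2 fold change above 0 and 8.08% had every Cx43KO library above every Cx43FL library. Among the 5 separated markers, Csf1r, Laptm5 and Olfml3 were at log2 fold changes of 1.96, 2.80 and 2.52. Cx3cr1, P2ry12 and Tmem119, picked after their values were seen, were at 0.13, -0.20 and -0.23, unlike most of the list. Of these, Tmem119 was at 0 in Cx43KO replicate 1. Cx3cr1 was at 2.90, 3.85 and 6.32 CPM in Cx43FL and 3.10, 4.46 and 6.73 in Cx43KO, and P2ry12 at 8.30, 12.1 and 6.64 and at 7.08, 5.43 and 11.0, so these overlapped. Tmem119 was at 0.988, 1.39 and 0.847 CPM in Cx43FL and at 0, 1.09 and 1.64 in Cx43KO. Sall1 and Ctss were among the 3 most abundant of the list, and Ctss was at 10.7, 5.77 and 2.35 CPM in Cx43FL and 22.7, 14.8 and 72.3 in Cx43KO. The C1q sum was 2.68%, 1.74% and 1.39% of the microglia sum in Cx43FL and 4.44%, 8.63% and 21.1% in Cx43KO.

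Sall1 alone was at 65.6, 68.5 and 64.5 CPM in Cx43FL and at 35.0, 75.2 and 44.6 in Cx43KO. Without Sall1, a sum chosen after seeing the data, the microglia markers summed to 72.1, 87.8 and 43.7 CPM in Cx43FL. In Cx43KO they then summed to 172, 145 and 269 CPM, so the sums stayed higher in all Cx43KO libraries. The C1q share of that sum was 5.11%, 3.10% and 3.43% in Cx43FL and 5.35%, 13.1% and 24.6% in Cx43KO. On that share Cx43KO replicate 1 was close to Cx43FL replicate 1, and the part of microglia in the result was not tested. Markers of border macrophages, with Stab1, Mrc1 and F13a1 the most abundant, summed to 6.92, 12.3 and 4.49 CPM in Cx43FL and 17.5, 34.3 and 22.3 in Cx43KO. Fibroblast markers, with Igf2, Dcn and Pdgfra the most abundant, summed to 160, 106 and 211 CPM in Cx43FL and 505, 273 and 483 in Cx43KO. Both sums were higher in all Cx43KO libraries, but without Igf2, likewise left out after seeing the data, the fibroblast sums were 36.6, 56.3 and 51.2 CPM in Cx43FL and 82.3, 41.5 and 111 in Cx43KO and overlapped. Of the 7 tested fibroblast markers, 6 were higher and 1 was separated with Cx43KO above, against 54.4% and 8.08% of all tested genes. The part of these cells in C4b and Serping1, which fibroblasts also express, was not tested. Markers of choroid plexus epithelium summed to 9946, 461 and 15370 CPM in Cx43FL and 32880, 26340 and 22200 in Cx43KO, mostly from Ttr. Of these, 7 of 8 had every Cx43KO library above every Cx43FL library, against 8.08% of all tested genes. Markers of neutrophils were at 0 in all libraries except 0.0309 CPM in Cx43KO replicate 3, and those of T cells summed to between 0.186 and 4.74 CPM, overlapping between the genotypes. The T cell genes Cd3d, Cd3e, Cd3g and Cd8a were at 0 in all 6 libraries. Endothelial markers, between 5.35 and 23.7 CPM, overlapped as well.

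Astrocyte markers, with Slc1a2, Aldoc and Gfap the most abundant, summed to 18150, 16740 and 20940 CPM in Cx43FL and 10260, 19220 and 29130 in Cx43KO, so the labelled cell type was present and its sum overlapped. Oligodendrocyte markers summed to between 579 and 981 CPM in 5 libraries and to 2588 in Cx43KO replicate 1, the library highest in Cd55 and C3ar1, and neuron markers summed to 1725, 2313 and 2323 CPM in Cx43FL and 5275, 2301 and 3713 in Cx43KO. By fitted fold change, 10 of 10 neuron markers and 8 of 8 oligodendrocyte markers were higher in Cx43KO, against 54.4% of all tested genes. Their medians were 0.89 and 0.78 on the log2 scale. Separated by genotype were 3 and 1 of them, with Cx43KO above, against 8.08% of all tested genes. The part of these cells in the members' values was not tested.

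**Figure D4:**
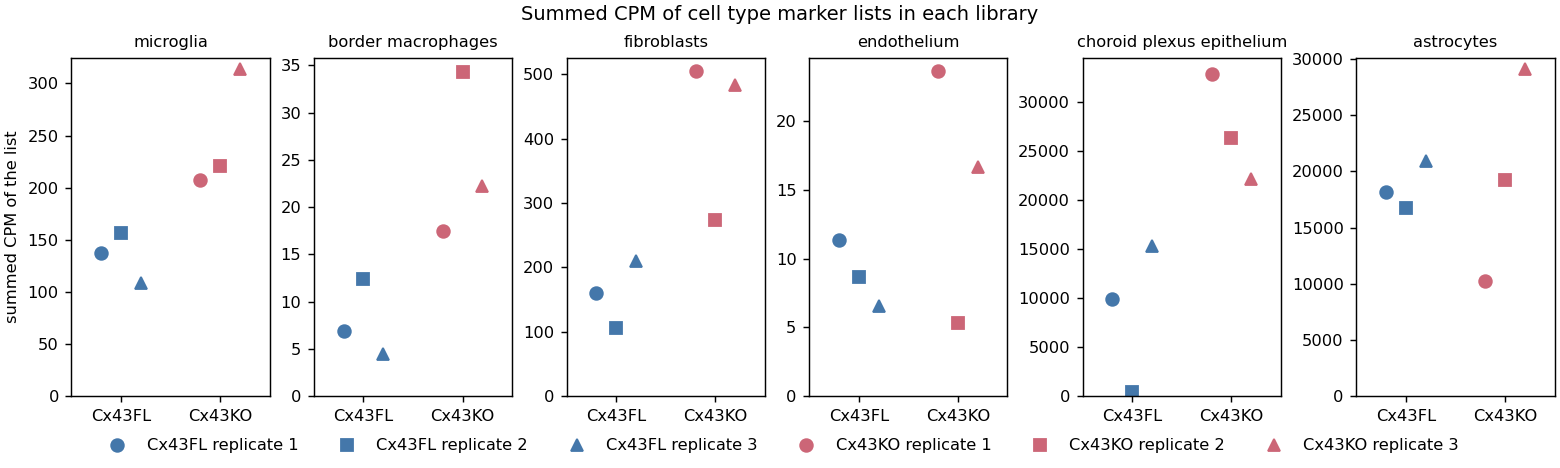
Summed CPM of marker lists in each library on linear axes, with Cx43FL and Cx43KO points. The lists are microglia, border macrophages, fibroblasts, endothelium, choroid plexus epithelium and astrocytes. Microglia, border macrophage, fibroblast and choroid plexus sums lie higher in all Cx43KO libraries, and astrocyte sums overlap.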

How the data were processed

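Genome-wide read counts from TRAP-purified astrocyte polysomes were analysed in 6 libraries, 3 a genotype, grouped by the sample labels. Per the labels, the authors deposited raw counts on Ensembl transcripts, made with bcl2fastq 1.8.4, STAR and HTSeq 0.5.3 on mm10, according to the submitters' processing notes. Reads mapping more than once had been removed by the authors, the kit does not mark strand, and polysomal RNA had been amplified, so counting intervals cover counting error only. The 2 transcripts of C5ar1 have identical counts in 6 of 6 libraries, so a read could be counted on more than 1 transcript.

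Of 75466 transcripts, 73157 were matched to 22086 genes of GENCODE vM21 (GRCm38), and 2309, with 1.60% to 1.78% of the counts, were not. The members and lists were chosen with earlier results of these data known. Genotypes were compared in R 4.3.3 with edgeR 4.0.16 (TMM, filterByExpr, quasi-likelihood F test), adjusted by Benjamini-Hochberg over 13545 genes, and a call needed an adjusted p under 0.05 with more than 50 normalized counts on average in the higher group. SEs were taken as log2 fold change over the root of F. Alternatives were RLE and upper-quartile factors, other filters (none, or 10 counts in each library), no minimum mean count, DESeq2 1.42.0 with and without its prior, the replicate block, transcripts added up, log2(CPM + 0.5) and leaving out each library. The fit was tested on simulated data.

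Named genes were the 9 members. Others named were the complement genes called or separated by genotype with a mean normalized count above 50, the 5 most abundant complement genes per length, the top 3 and the absent genes of each marker list, Gja1, and the 3 genes closest in profile to Cd55, C1qb and C4b. Results for 2 genes covered by this rule are not reported here. Microglia markers and untested complement genes beyond these were chosen after their values were seen. Tables were made with pandas 2.3.3, numpy 2.4.6 and scipy 1.17.1. Genotypes of 3 against 3 cannot reach below p = 0.1 in an exact permutation test of 1 gene, which was therefore not run.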

Additional observations from a re-analysis of the deposited data

How the results depend on the processing

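Of 184 alternative values, 152 were labelled the same, 22 moved, 10 passed the threshold only under the alternative, and none reversed. Refitted fold changes were judged by direction and side of the threshold alone. Size was judged only for differences of mean log2(CPM + 0.5) and for counts of genes. A fold change labelled the same could thus differ much in size, as for C3ar1, at 6.08 in the main fit and 1.38 with DESeq2 and its normal prior. Differences of mean log2(CPM + 0.5) were smaller for genes near 0 in Cx43FL, at 1.73 for C1qa, 2.20 for C3, 2.69 for C3ar1 and 0.56 for C5ar1. DESeq2 with its normal prior called C1qb at 1.82 and Cd55 at 2.71 on the log2 scale, and without the prior C1qb at 3.20, C1qc at 4.19, C3ar1 at 6.27 and Cd55 at 5.24. With the prior on all counted genes, an alternative chosen after seeing the data, it called C1qb at 1.91, C1qc at 1.92, C3ar1 at 1.89 and Cd55 at 2.77. Genes called higher were 1 with edgeR, 98, 121 and 113 with those DESeq2 settings, and 0 with transcripts added up or with at least 10 counts in every library. Genes called lower were 0 with edgeR (362 at an unadjusted p under 0.05) and 14, 19 and 17 with DESeq2, and other complement genes called were 0 and then 1 in each. Leaving out 1 library gave 0 to 8 genes called higher, 8 without Cx43KO replicate 1, and log2 fold changes of 3.83 to 8.42 for C1qa (8.42 without Cx43FL replicate 3, which leaves that group at 0, so the value is no bound), 1.61 to 3.69 for C1qb, 3.31 to 4.73 for C1qc, 3.13 to 4.97 for C3, 5.43 to 6.43 for C3ar1, 0.26 to 0.92 for C4b, 1.41 to 2.72 for C5ar1, 4.18 to 5.77 for Cd55 and 1.52 to 2.48 for Serping1. Separated members numbered 6 to 9 when 1 library was left out and 5 with transcripts added up. The cause of these changes was not tested.

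Replicate numbers did not pair the libraries: the deviations of same-numbered libraries correlated at 0.0114, -0.00402 and -0.0547, and 1 of 6 libraries correlated best with its own number. With the replicate number as a block, 2 genes were called higher and no member was called, Cd55 being at 5.49 (adjusted p = 0.279, edgeR's quasi-likelihood test). Depth limits C1qa, C3, C3ar1 and C5ar1, which had at most 8 counts in any Cx43FL library.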

Other observations

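Several complement genes outside the group that were too low to be tested had most of their counts in single libraries, named here after their values were seen. Fcna, a ficolin that starts the lectin pathway, had 0, 0 and 0 counts in Cx43FL and 1, 119 and 15 in Cx43KO. Itgax, the alpha chain of complement receptor CR4, had 0, 0 and 0 counts in Cx43FL and 0, 0 and 22 in Cx43KO. Cd55b, the neighbouring copy of Cd55, had 0, 0 and 0 counts in Cx43FL and 21, 0 and 1 in Cx43KO. Others, among the 5 with a lower mean CPM in Cx43KO, had most of their counts in a single Cx43FL library. C4bp had 19, 0 and 2 counts in Cx43FL and 0, 0 and 0 in Cx43KO. C1s2 had 0, 0 and 10 counts in Cx43FL and 0, 0 and 0 in Cx43KO. Hc had 24, 0 and 0 counts in Cx43FL and 2, 7 and 0 in Cx43KO. Cfb, the protease of the alternative pathway, was tested and had 45, 16 and 57 counts in Cx43FL and 0, 134 and 129 in Cx43KO, so that it was at 0 in Cx43KO replicate 1, where C3 had 3 counts. The genes Mbl1, Cfd, C7, C9, Vsig4, Cfi and Srpx2 were at 0 counts in all 6 libraries.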
